A study of Mus musculus with 211 samples.

Results

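Expression of 9 lymphocyte genes, *Nkg7*, *Klrd1*, *Cd3e*, *Cd3g*, *Cd79a*, *Cd79b*, *Ms4a1*, *Ighm* and *Igkc*, was followed through single cells of the adult mouse cochlea. The genes were found by their Ensembl identifiers among 48709 genes, and they were chosen by their read counts in these cells, so where they are held is given as a description. The cells came from Lfng-EGFP mice on a CD1 background, in which a bacterial artificial chromosome drives EGFP under the control of *Lfng*, a gene of cochlear supporting cells (SCs). Both ages, P60 and P120 (60 and 120 days after birth), carried the transgene, and the labels name no treatment. GFP-positive cells were sorted by FACS and captured on the Fluidigm C1, with the tissue of several mice pooled in each capture, which makes the capture and not the cell the replicate. Of the 211 cells, those of P60 fill 8 captures with 3 to 24 cells each, and those of P120 fill 4 captures with 16 to 37. A cell was said to hold a gene at 10 or more reads.

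Lymphocytes are recognised by the receptors and the killing machinery they make. *Cd3e* and *Cd3g* encode chains of the CD3 complex, which carries the signal of the T cell receptor, and *Klrd1* (CD94) is a receptor of natural killer (NK) cells. *Nkg7* encodes a membrane protein of cytotoxic granules, which NK cells and killer T cells use. *Cd79a* and *Cd79b* are the signalling pair of the B cell receptor, *Ighm* and *Igkc* encode the constant parts of its mu heavy chain and kappa light chain, and *Ms4a1* (CD20) is a surface protein of maturing B cells. Precursors of neutrophils store elastase (*Elane*) and myeloperoxidase (*Mpo*) in their primary granules, and basophils make the proteases *Prss34* and *Mcpt8*.

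Cells with 10 or more reads of *Elane* or *Mpo* were called *Elane*/*Mpo*-positive and those with 10 or more of *Prss34* or *Mcpt8* *Prss34*/*Mcpt8*-positive. By this rule 42 cells were *Elane*/*Mpo*-positive alone, 13 *Prss34*/*Mcpt8*-positive alone and 25 both, so that 80 of 211 cells (37.9%) were in a class. The rule reaches cells with very few class reads. In capture 28, the cells under 1000 reads of each of the 4 genes still had a median of 12.5 *Elane* and 6 *Mpo* reads, while in capture 20c the medians were 0 and 0.5. A limit of 1000 reads, added after the data were seen, left 32 cells. Of these, 20 passed with *Elane* or *Mpo* alone and are called the *Elane*/*Mpo* cells, and 12 passed with *Prss34* or *Mcpt8* and are called the *Prss34*/*Mcpt8* cells, 7 of which also had 1000 reads of *Elane* or *Mpo*. The 20 cells lay in 7 captures and the 12 cells in 4.

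The cells as a whole did not carry the profile of their label. In the 173 cells that were in neither class at 1000 reads and were not rich in lymphoid genes, a list of 11 neutrophil genes took a median of 136294 CPM (reads per 1000000 reads on genes of the cell) and a list of 12 SC genes a median of 243 CPM. The ranges were wide, from 27.8 to 588276 CPM and from 0 to 57414 CPM. The cells had between 41 and 5361476 reads on genes (median 736455), but those of capture 10c a median of 451. The 69 cells that held at least 1 of the 9 genes had a median of 1634900 reads, against 490913 in the other 142 cells. Holding a gene therefore moved with read depth, and shares of cells with an *Nkg7* read are given again below after thinning each cell to 50000 reads.

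To show the DNA next to the genes on which the results turn, the 250 bases before the RefSeq start of 4 of them were read from GRCm38.p6. *Nkg7* was held by the most cells, *Cd79a* marked the B-like cells described below, and *Cd3g* and *Cd3d* encode chains of the CD3 complex and their starts lie 1355 bp apart on chromosome 9. Capitals mark matches to 4 motifs searched on both strands, which are the EBF motif CCCNNGGG, the C/EBP motif TTGCNNAA, the GATA motif AGATAA and the RUNX motif TGTGGT. The windows are chr7:43436888-43437137 (+), chr7:24897247-24897496 (+), chr9:44980432-44980681 (-) and chr9:44981536-44981785 (+).
Nkg7: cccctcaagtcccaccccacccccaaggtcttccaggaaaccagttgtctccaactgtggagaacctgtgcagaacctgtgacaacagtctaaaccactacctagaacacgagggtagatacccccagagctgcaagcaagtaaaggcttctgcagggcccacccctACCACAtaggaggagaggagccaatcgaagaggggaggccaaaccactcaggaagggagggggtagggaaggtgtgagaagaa
Cd79a: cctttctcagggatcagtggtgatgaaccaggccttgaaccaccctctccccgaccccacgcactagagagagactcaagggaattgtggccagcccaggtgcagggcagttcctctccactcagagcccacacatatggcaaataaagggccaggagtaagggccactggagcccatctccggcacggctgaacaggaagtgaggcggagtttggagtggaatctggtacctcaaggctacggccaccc
Cd3g: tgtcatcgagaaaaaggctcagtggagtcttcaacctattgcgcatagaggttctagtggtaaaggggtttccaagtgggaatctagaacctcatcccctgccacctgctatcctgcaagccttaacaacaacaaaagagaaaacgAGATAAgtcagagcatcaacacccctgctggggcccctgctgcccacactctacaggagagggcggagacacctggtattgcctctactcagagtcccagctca
Cd3d: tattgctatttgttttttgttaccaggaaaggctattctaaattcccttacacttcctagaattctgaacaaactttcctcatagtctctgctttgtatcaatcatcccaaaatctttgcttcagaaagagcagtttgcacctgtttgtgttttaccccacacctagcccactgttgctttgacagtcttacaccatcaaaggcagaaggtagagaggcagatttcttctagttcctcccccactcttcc
The *Nkg7* window had 1 RUNX match, which began 83 bases before the RefSeq start. The *Cd3g* window had 1 GATA match, which ended 99 bases before its RefSeq start. The annotated genes *Nkg7* and *Cd79a*, with coordinates given below, begin inside their windows. The *Cd79a* and *Cd3d* windows had no exact match to any of the 4. Sites that differ from a motif by 1 base were not counted, so the absence of a binding site does not follow. Among 32544 such windows of mouse genes, 13.96% held the RUNX, 9.97% the GATA, 11.9% the EBF and 9.58% the C/EBP motif. The motifs do not overlap one another in these windows.

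A total of 69 cells held at least 1 of the 9 genes, 38 of them at P60 and 31 at P120. Most held a single gene (50 cells), 14 held 2, 2 held 3 and 3 held 4. *Nkg7* was held by 41 cells, *Ighm* by 26, *Cd79a* by 10, *Cd79b* by 7 and *Igkc* by 6. *Klrd1*, *Cd3e* and *Cd3g* were each held by 2 cells. *Ms4a1* was held by none, with 1 read in each of 3 cells, and 0 of 211 cells allows a share of up to 1.73% by the exact Clopper-Pearson 95% interval, which covers counting error only. It (ENSMUSG00000024673.9, chromosome 19, 11249675 to 11266241, - strand) overlaps 4930526L06Rik. The values at the limit of 10 reads show how far the choice of 10 matters. For *Nkg7* the lowest held values were 10, 12, 12 and 14 reads and the highest below the limit were 8, 6, 5 and 5. For *Ighm* they were 13, 14, 14 and 30 against 8, 7, 4 and 3, and for *Igkc* 14, 14, 17 and 18 against 6, 6, 6 and 5. For *Cd79a* they were 13, 19, 38 and 52 against 8, 6, 3 and 3, and for *Cd79b* 15, 16, 58 and 89 against 8, 3, 3 and 3. *Klrd1*, *Cd3e* and *Cd3g* had no value near the limit, with 1635, 237 and 1193 reads in the lower of their 2 cells and 3, 1 and 5 in the next.

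**Figure D1:**
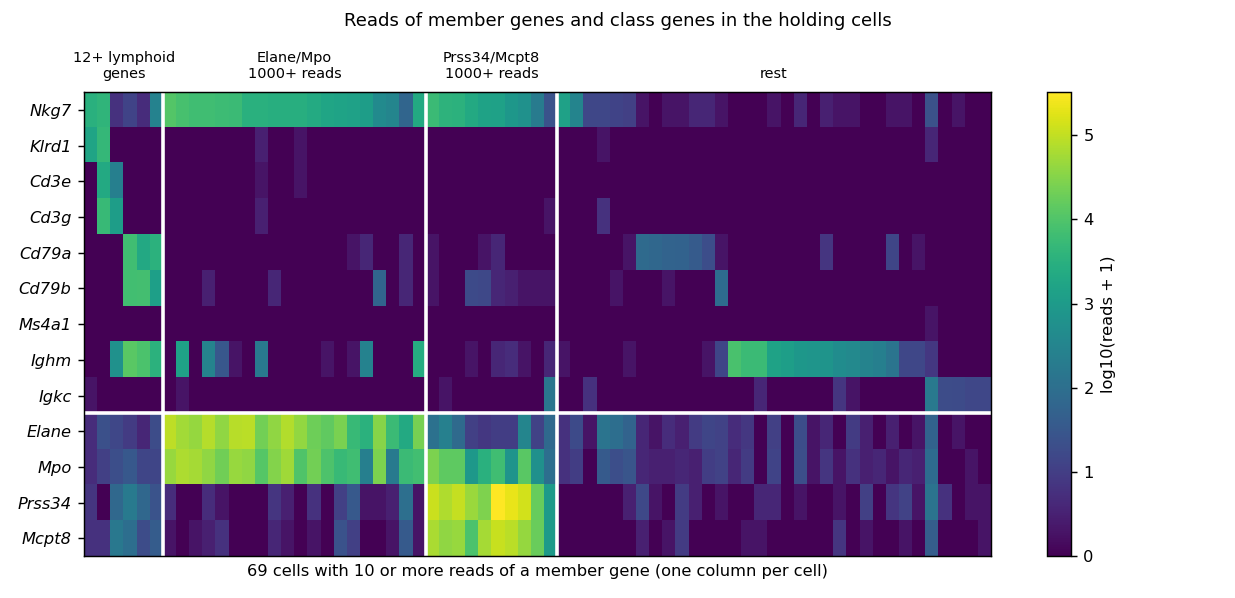
Reads of the 9 genes and of the 4 class genes (rows, log10 of reads + 1) in the 69 cells that held at least 1 of the 9 (columns), ordered by class at 1000 reads. *Nkg7* runs through the *Elane*/*Mpo* and *Prss34*/*Mcpt8* blocks, while high *Cd79a*, *Cd79b*, *Cd3e*, *Cd3g* and *Klrd1* are found in the 6 cells at the left and *Ighm* also in cells at the right.

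*Nkg7* (ENSMUSG00000004612.9, chromosome 7, 43437073 to 43438249, + strand) was the gene held by most cells. Of its 41 cells, 38 were in a class at 10 reads (92.7%, exact 95% interval 80.1 to 98.5%) and 30 at 1000 reads (73.2%, 57.1 to 85.8%). Of the cells that held any of the 9 genes, 47 of 69 (68.1%) were in a class at 10 reads, against 33 of the 142 others (23.2%). For the other genes the class cells at 10 reads were 15 of 26 for *Ighm*, 5 of 10 for *Cd79a*, 7 of 7 for *Cd79b*, 2 of 6 for *Igkc*, 1 of 2 for *Klrd1* and 2 of 2 for *Cd3e* and for *Cd3g*. At 1000 reads they were 6 of 26, 0 of 10, 3 of 7, 1 of 6 and 0 of 2 for each of the last 3. These counts need the background of all genes. Of 8985 genes held by at least 5 cells, 82.8% had the majority of their holding cells in a class at 10 reads and 37.2% at 1000 reads, so a majority of holding cells in a class at 10 reads is what most genes show. At 1000 reads every one of the 20 *Elane*/*Mpo* cells and 10 of the 12 *Prss34*/*Mcpt8* cells held *Nkg7*, against 7 of the 173 remaining cells. Of the 8985 genes, 2.82% were held by all 20 *Elane*/*Mpo* cells. Held by all 20 and by no more than 7 of the 173 remaining cells were *Nkg7* and *Prtn3* alone, 0.0223% of the genes. Both limits were taken from the values of *Nkg7*, which therefore passed by construction, so the share is only a description. *Prtn3* encodes proteinase 3 of neutrophil granules. *Prtn3* was named after its values were seen.

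The level of *Nkg7* by class is given without a test. In the 20 *Elane*/*Mpo* cells it ranged from 61 to 10721 reads with a median of 2840, which is 20.4 to 5059 CPM with a median of 1636 CPM. The 12 P60 cells among them had a median of 1859 CPM and the 8 P120 cells a median of 1223 CPM, and their ranges overlapped (345 to 5059 CPM and 20.4 to 3193 CPM). In the 12 *Prss34*/*Mcpt8* cells the median was 498 CPM, with a range of 0 to 2888 CPM. Cell_151 and Cell_224 were the 2 of them that did not hold it, with 1 read and 0 reads of *Nkg7* beside 111458 and 54245 reads of *Prss34*. Of all *Nkg7* reads, 70.6% lay in the *Elane*/*Mpo* cells, 19.9% in the *Prss34*/*Mcpt8* cells and 7.59% in the 6 cells rich in lymphoid genes described below.

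The order was the same at an equal depth. After thinning to 50000 reads, 19 of 20 *Elane*/*Mpo* cells and 10 of 12 *Prss34*/*Mcpt8* cells had at least 1 *Nkg7* read, against 8 of 126 remaining cells. Without thinning, 46 of the 126 had one. A total of 54 cells had between 1 and 9 *Nkg7* reads, and 42 of them had 1 or 2. The 7 holding cells among the remaining 173 had 10 to 1401 reads with a median of 14, and 4 of the 7 were in capture 28. The 2 with over 100 reads, Cell_066 with 311 and Cell_086 with 1401, were P60 cells of captures 31 and 40.

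**Figure D2:**
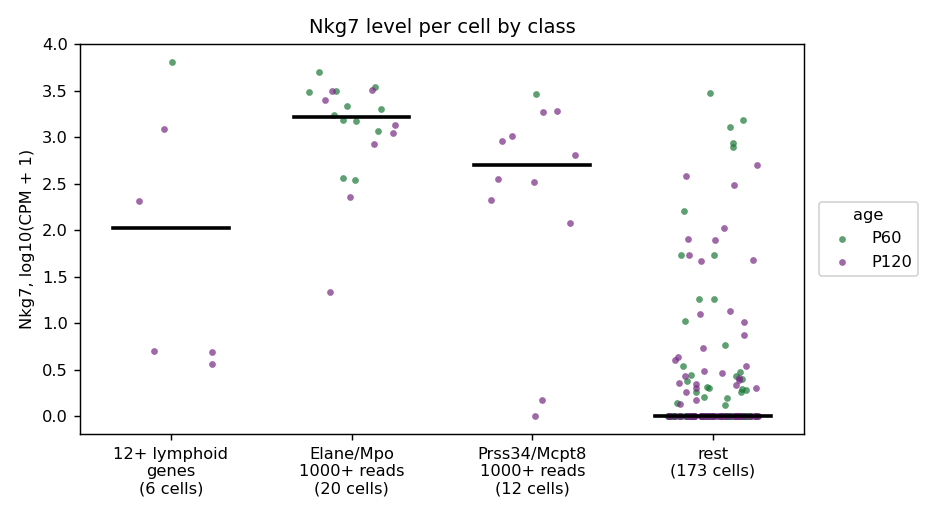
*Nkg7* level of each of the 211 cells, as log10(CPM + 1), by class at 1000 reads, with the age in color and the median of each class as a bar. All 20 *Elane*/*Mpo* cells lie at 20.4 CPM or above, and the median of the 173 remaining cells is 0. High CPM values in that group include cells of few reads.

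The genes whose holding cells were most like those of *Nkg7*, by the Jaccard index over all 211 cells, were *Cst7*, *Ctsg* and *Eif3f*. *Cst7* (cystatin F, an inhibitor of lysosomal proteases) was held by 34 cells and shared 31 with *Nkg7*, an index of 0.705. *Ctsg* (cathepsin G, a protease of the same granules as elastase) shared 30 of 34 cells, an index of 0.667. *Eif3f*, a translation initiation factor, shared 33 of 43 cells, an index of 0.647. These cells share depth as well as class, so the indices are descriptions.

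Whether a cell was lymphoid was read from 53 genes of T, NK and B cells. Of these, 43 were held by at least 1 cell. Cells with 3 or more of them were called lymphoid, which gave 18 cells, 7 at P60 and 11 at P120, of which 14 were in a class at 10 reads. They fell apart by number, since 6 cells held 12 to 17 of the genes, 12 cells held 3 to 5, and no cell held 6 to 11. The 6 rich cells held 39 of the 53 genes, and 24 genes were held by none but these 6. Of the 34 list genes held by at least 2 cells, 16 were found in the 6 alone. Over all 12396 genes held by at least 2 cells the share was 0.904%, but the cells were chosen for these very genes, so nothing follows from the comparison.

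**Figure D3:**
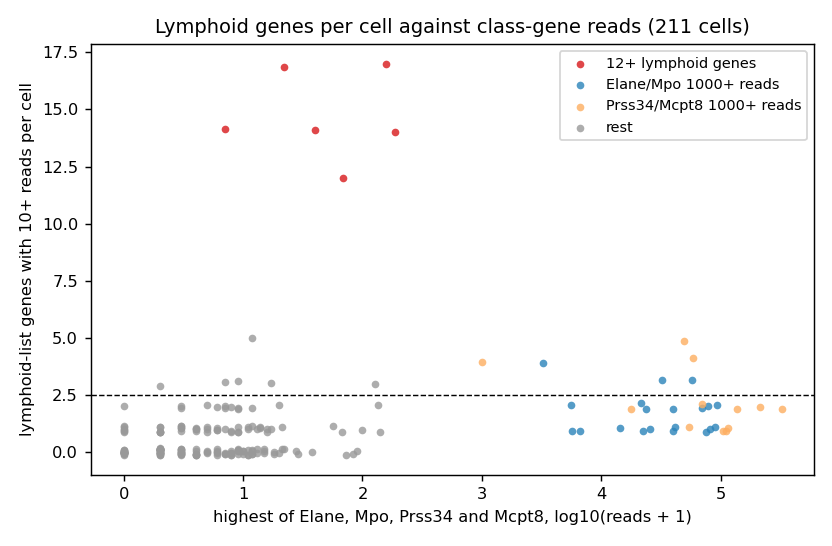
Number of lymphoid-list genes held by each of the 211 cells against the highest read count of *Elane*, *Mpo*, *Prss34* and *Mcpt8* in the same cell (log10 of reads + 1), with a dashed line between 2 and 3 genes. The 6 cells with 12 to 17 genes lie well to the left of the cells with 1000 or more class reads, and the gap from 6 to 11 genes is empty.

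The 6 rich cells were 1 cell at P60 and 5 at P120, from captures 9c, 28 and 32, with 4 of them in capture 28. Cell_004 (P60, capture 9c) held 11 of the 12 NK genes and was NK-like. It had 3091 reads of *Nkg7*, 1635 of *Klrd1*, 7188 of the granzyme gene *Gzma*, 3262 of *Gzmb*, 513 of the NK receptor gene *Ncr1* and 439 of *Prf1*, which encodes the pore-forming protein perforin. It had 0 reads of *Cd3e* and of *Cd3g*, but 946 of the T cell receptor constant gene *Trbc2* and 71 of *Trbc1*. *Il2rb*, a chain of the IL-2 and IL-15 receptors, had 749 reads, the receptor genes *Klre1*, *Klrk1* and *Klrb1c* had 247, 209 and 45, and *Eomes*, which encodes a transcription factor of NK cells, had 31.

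Cell_105 (P120, capture 28) held 15 of the 18 T cell genes and was T-like. It had 237 reads of *Cd3e*, 1193 of *Cd3g*, 4372 of the costimulatory receptor gene *Cd28*, 2867 of the IL-7 receptor gene *Il7r*, 2593 of the kinase gene *Lck* and 800 of *Zap70*, the kinase that binds the CD3 chains. It also had 600 reads of *Ighm*, a B cell gene, with 0 of *Cd79a* and of *Cd79b*. Among the other T cell genes, *Trbc2* had 1664 reads, the adhesion gene *Cd2* had 987, *Cd3d* 522, *Bcl11b*, a transcription factor of the T lineage, 90 and *Cd5* 49. The T cell receptor gamma chain gene *Tcrg-C4* had 983 reads and the alpha chain gene *Trac* 73. Reads of *Mki67* (3783) and *Top2a* (4089), genes of dividing cells, were present.

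Cell_205 (P120, capture 28) held 10 T cell genes together with 7 NK genes. *Cd3e* stood at 2269 reads, *Cd3g* at 5228, *Klrd1* at 4651 and *Nkg7* at 4097. The NK receptor gene *Klrk1* stood at 9774, *Lck* at 15387 and the T cell receptor genes *Trac* and *Trbc1* at 3227 and 4025 reads. The gamma chain gene *Tcrg-C4* stood at 6085 reads. *Cd3d* had 5560 reads, the zeta chain gene *Cd247* had 284 and *Klre1* had 2606. It was the highest cell for *Klrd1*, *Cd3e* and *Cd3g*. *Cd4*, *Cd8a* and the NK gene *Ncr1* were not read in it, and *Mki67* had 6 reads.

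Cell_106 and Cell_109 (capture 28) and Cell_120 (capture 32), all at P120, were B-like, with 12, 11 and 10 of the 23 B cell genes. *Cd79a* stood at 3456, 2128 and 6625 reads in the 3 cells, *Cd79b* at 1296, 7426 and 6974, and *Ighm* at 3481, 9095 and 12857. All 3 held *Pax5* and *Ebf1*, which encode transcription factors of the B lineage, and *Vpreb1*, *Vpreb3* and *Igll1*, genes of the pre-B cell receptor and its assembly. *Igll1* stood at 2954, 10118 and 11594 reads, and *Ebf1* at 5350, 5372 and 11515. All 3 also held *Rag1*, a subunit of the recombinase that joins antibody gene segments, and *Dntt*, the enzyme that adds bases at the joints. *Ms4a1* and *Igkc* were at 0 reads in each. *Nkg7* stood at 275, 4 and 12 reads, so 2 of the 4 rich cells that held it were B-like. *Dntt* stood at 3243, 3451 and 6852 reads and *Rag1* at 60, 803 and 391. Cell_120 also held the T cell genes *Lck* (1045 reads) and *Cd28* (994), and all 3 held *Il7r*, which early B lineage cells use as well, at 123, 3505 and 1235 reads. *Top2a* stood at 5026, 1346 and 15097 reads. The 3 cells differed in other B cell genes. *Rag2* stood at 659, 8 and 0 reads and *Ighd*, the delta heavy chain gene, at 0, 271 and 1.

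**Figure D4:**
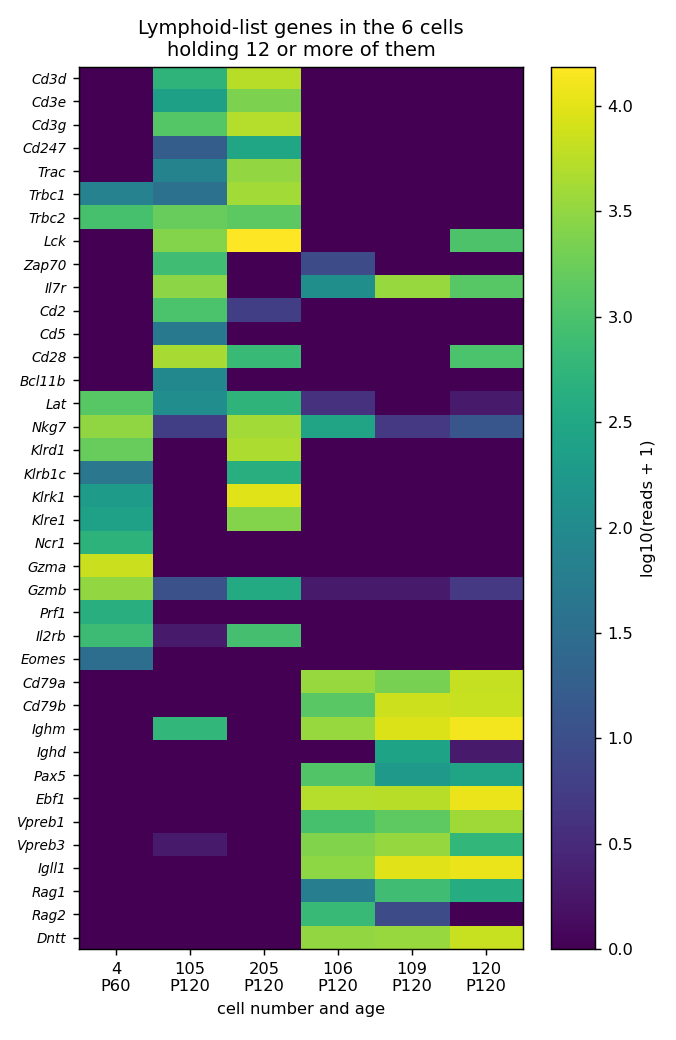
Reads (log10 of reads + 1) of lymphoid-list genes held by at least 1 of the 6 rich cells, with T cell genes at the top, NK genes in the middle and B cell genes at the bottom. Cell_106, Cell_109 and Cell_120 share the B cell block, Cell_004 fills the NK block and Cell_205 fills parts of the T and NK blocks.

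The 3 B-like cells carried 97.2% of all *Cd79a* reads in the series and 98.6% of all *Cd79b* reads. The 6 rich cells carried 99.8% of the reads of *Cd3e*, of *Cd3g* and of *Klrd1*. They carried 45.3% of the *Ighm* reads, 7.59% of the *Nkg7* reads and 0.217% of the *Igkc* reads.

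The 6 rich cells passed the class rule only at low read counts. At 10 reads 5 of the 6 were in a class, and at 1000 reads none was. They had 3 to 21 reads of *Elane*, 4 to 32 of *Mpo*, 0 to 186 of *Prss34* and 5 to 158 of *Mcpt8*. Other cells of capture 28 outside the classes at 1000 reads reached 133 reads of *Elane*, 82 of *Mpo* and 127 of *Prss34*. The highest *Mcpt8* value of such cells in capture 28 (158, Cell_105) and the highest *Prss34* value in capture 32 (186, Cell_120) were those of rich cells. Free RNA of other cells as a source of these reads was not tested. Neutrophil genes were low in the rich cells. The list of 11 took a median of 124 CPM and at most 153 CPM, and *S100a8* and *S100a9*, abundant messages of neutrophils, summed to 32 to 345 reads against a median of 36770 in the 173 remaining cells.

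GFP is the signal by which the cells were sorted. The normalized GFP intensity was 37, 33 and 41 in the 3 B-like cells, which are ranks 3, 2 and 4 from the lowest of 211. It was 613 in Cell_004, 151 in Cell_105 (rank 41) and lower in Cell_205 (rank 25). *Lfng* itself had 126, 281 and 43 reads in Cell_004, Cell_105 and Cell_205, and 0, 1 and 0 in the B-like Cell_106, Cell_109 and Cell_120.

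The 12 cells with 3 to 5 lymphoid genes held few genes of any one list. They were 3 *Elane*/*Mpo* cells, 3 *Prss34*/*Mcpt8* cells and 6 cells in neither class. Cell_107 and Cell_110, both *Prss34*/*Mcpt8* cells, held *Nkg7* at 1502 and 2255 reads, *Gzmb* at 4375 and 8866 and *Lat*, which encodes an adaptor of receptor signalling, at 243 and 73, with *Cd79b* at 15 and 16. *Lat* was held by 7 of the 12 *Prss34*/*Mcpt8* cells, 2 of the 20 *Elane*/*Mpo* cells, 3 of the 6 rich cells and none of the 173 remaining cells, and *Gzmb* by 4, 0, 3 and 0 of them. Cell_039 (P60, capture 19c) stood apart. It had 3426 reads of *Dntt*, 2372 of the variable segment *Ighv14-3*, 15 of *Igll1* and 14 of *Nkg7*, and 0 of *Cd79a*, *Cd79b* and *Ighm*.

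*Cd79a* (ENSMUSG00000003379.7, chromosome 7, 24897381 to 24902197, + strand) was held by 7 more cells besides the B-like cells, at 13 to 79 reads with a median of 52. None of the 7 was in a class at 1000 reads. All 7 had over 1000 reads of *S100a8* and *S100a9* together, with a median of 130050. Only Cell_001 (P60, capture 9c) also held *Ighm*, at 130 reads. The gap to the B-like cells was wide, since the lowest of those had 2128 reads.

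*Cd79b* (ENSMUSG00000040592.11, chromosome 11, 106311341 to 106314762, - strand) was held by 4 more cells. Cell_067 had 89 reads, Cell_196 had 58, Cell_110 had 16 and Cell_107 had 15. Cell_196 was an *Elane*/*Mpo* cell, with 32460 *Elane* reads, and Cell_107 and Cell_110 were *Prss34*/*Mcpt8* cells, so 3 of the 4 were in a class at 1000 reads. None of the 4 held *Cd79a*.

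By the Jaccard index, the cells most like those of *Cd79b* held *Il7r* (4 cells shared of 5, an index of 0.5), *Timm9*, a mitochondrial import gene (5 of 8, 0.5), and *Foxo1*, a transcription factor needed in early B cells (4 of 6, 0.444). For *Cd79a* they held *Gpat3*, an enzyme of lipid synthesis (5 of 10, 0.333), *Klhl42* (4 of 7, 0.308) and *Xpo4*, a nuclear export gene (4 of 8, 0.286). The shared cells are few.

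*Ighm* (ENSMUSG00000076617.9, chromosome 12, 113418558 to 113422730, - strand) was held by more cells than any other gene of the B cell list. Beside 4 of the rich cells it was held by 22 cells, at 13 to 8610 reads with a median of 432, and 7 of them had 1000 or more. They were 19 P60 cells and 3 P120 cells and came from 9 captures, with 8 in capture 40. The highest were Cell_191 with 8610 reads (2853 CPM), Cell_085 with 5825 (2230 CPM) and Cell_048 with 5627 (3671 CPM). The levels of Cell_191 and Cell_048 lay within the range of the B-like cells (2580 to 5927 CPM) and that of Cell_085 just below it. In all 3 cells *Cd79a* and *Cd79b* were at 0 reads. Of the 22 cells, 2 held *Cd79a* or *Cd79b*, 7 had 10 or more reads over variable segments of antibody genes and none had 10 over diversity and joining segments. All 22 had over 1000 reads of *S100a8* and *S100a9* together, with a median of 149930.

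Of the 22 cells, 6 were *Elane*/*Mpo* cells, and all 6 held *Nkg7*. Cell_079, with 2577 *Ighm* reads, and Cell_035, with 1433, were the highest of them. None of the 12 *Prss34*/*Mcpt8* cells held *Ighm*, and their highest value was 4 reads. The cells most like those of *Ighm* held *Foxn3* (14 shared of 29, an index of 0.341), *Tiparp* (16 of 43, 0.302) and *Hnrnph2*, which encodes an RNA-binding protein (14 of 36, 0.292). None of these is in the B cell list.

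*Igkc* (ENSMUSG00000076609.2, chromosome 6, 70726435 to 70726966, + strand) was held by 6 cells, and none of them was a rich cell. It overlaps the annotated gene *Gm30211*. Where the pair overlaps, their reads cannot be told apart if strand was not used in counting. Whether strand was used is not given in the sources used here. Cell_019 and Cell_020 (P60, capture 9c) had 18 and 17 reads, Cell_021 and Cell_022 (P60, capture 10c) had 14 each, and Cell_216 and Cell_226 (P120, capture 28) had 147 and 166. Cell_021 and Cell_022 had only 520 and 2883 reads on all genes, so that 14 reads came to 26923 and 4856 CPM. All 6 cells also had reads of *Ighg2b*, an IgG heavy chain gene, from 7 to 91, and all 6 had the variable segment *Igkv13-84*, at 1 to 35 reads. *Ighg2b* shares sequence with the other IgG genes, so its reads are less certain. It was also read in the B-like cells Cell_109 (2500 reads) and Cell_120 (2223), where *Igkc* was at 0.

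The cells with an *Igkc* read lay almost wholly in 1 sequencing run, but most of the reads did not. Of 461 *Igkc* reads, Cell_216 and Cell_226 of run S059iso2 had 147 and 166. Of the 40 cells with at least 1 *Igkc* read, 36 were in run S047, which holds P60 captures only, 4 were in S059iso2 and 0 in S059iso1. For the number of cells with an *Igkc* read, age and run therefore cannot be told apart. *Ighg2b* was read in 25 of the 40 cells and in 13 of the 171 others. Within S047 it was read in 23 of the 36 cells with an *Igkc* read and in 7 of the 19 without. At 1 to 9 *Igkc* reads it was read in 19 of 32 cells of that run and in 0 of 2 of S059iso2. The genes most like *Igkc* were *Ighg2b* (4 of 6 cells shared, an index of 0.5), *Otog* (2 of 5, 0.222), which encodes otogelin of the inner ear matrices, and *Sparc* (2 of 5, 0.222).

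Cell_216 and Cell_226 had reads of more genes than any others in the series. Cell_216 had 8065 genes and Cell_226 had 6552, from 201535 and 43998 reads. *Jchain*, the joining chain of secreted antibodies, stood at 16 and 30 reads in them. Cell_216, which passed as a *Prss34*/*Mcpt8* cell by 1010 reads of *Mcpt8*, also had 74 reads of *Elane*, 98 of *Mpo* and 986 of *Prss34*, and Cell_226 had 54, 82, 127 and 42. No doublet caller was run, and whether the capture sites of Cell_216 and Cell_226 held more than 1 cell was not tested here. The study imaged its capture sites and lists no multicell capture for capture 28.

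*Cd3e* (ENSMUSG00000032093.6, chromosome 9, 44998740 to 45009627, - strand), *Cd3g* (ENSMUSG00000002033.13, chromosome 9, 44969572 to 44980431, - strand) and *Klrd1* (ENSMUSG00000030165.16, chromosome 6, 129591782 to 129598775, + strand) were held by rich cells alone. The annotated genes *Gm48719* and *Gm48720* overlap *Cd3e*. *Cd3e* and *Cd3g* were held by Cell_105 and Cell_205, and *Klrd1* by Cell_004 and Cell_205. Outside these the highest values were 1 read for *Cd3e*, 5 for *Cd3g* and 3 for *Klrd1*. Another CD3 chain gene did not follow them. *Cd3d* (ENSMUSG00000032094.7) was held by 37 cells, of which 2 were rich cells, 3 more were in a class at 1000 reads and 32 were in none. In the 35 cells outside the rich ones *Cd3d* had 11 to 3860 reads with a median of 288, while *Cd3e* had at most 0 and *Cd3g* at most 1 read. *Lck* was likewise held by 16 cells, 13 of them outside the rich cells, and *Bank1*, a B cell adaptor gene, by 5 cells, none of them rich.

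The ages were compared over captures. Per capture, the share of cells that held at least 1 of the 9 genes was 30.7% ± 19.7 (SD, n = 8) at P60, with a range of 0 to 54.2%, and 25.98% ± 17.74 (SD, n = 4) at P120, with a range of 6.90 to 48.6%. The difference of -4.73 percentage points is smaller than either SD. *Nkg7* was held by 14.5% ± 13.8 (SD, n = 8) of the cells of a capture at P60 and 18.6% ± 18.02 (SD, n = 4) at P120, with none in captures 10c, 20c and 21c at P60 and none in capture 36 at P120. For *Cd79a* the shares were 1.74% ± 3.36 (SD, n = 8) and 6.75% ± 5.90 (SD, n = 4), and for *Cd79b* 0.543% ± 1.54 (SD, n = 8) and 4.55% ± 5.44 (SD, n = 4). *Igkc* was held by 3.24% ± 6.14 (SD, n = 8) and 1.35% ± 2.70 (SD, n = 4).

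*Ighm* had the widest gap in share. Its holding cells were 17.6% ± 13.4 (SD, n = 8) of a P60 capture and 6.05% ± 3.41 (SD, n = 4) of a P120 capture. The P60 captures ranged from 0 to 33.3% and the P120 captures from 3.45 to 10.8%, so the groups overlapped. The exact two-sided permutation test over captures, with 495 arrangements and a smallest p of 0.00404, gave p = 0.133. For *Nkg7* it gave p = 0.651, for *Cd79a* p = 0.105, for *Cd79b* p = 0.182 and for *Igkc* p = 0.848. Over the 8985 genes tested in this way 1.18% had an unadjusted p under 0.05 and 0 passed adjustment over all of them, and each of these 5 genes had an adjusted p of 1. In the 6 captures of the runs that held both ages, the difference was -19.3 percentage points for *Ighm*, 2.41 for *Cd79a* (p = 0.667) and 2.38 for *Cd79b* (p = 0.800) by the exact permutation test. For *Ighm* the P60 captures of these runs (17.4 and 33.3%) lay above all 4 P120 captures, and its p of 0.133 by the exact test is the smallest that 2 captures against 4 can give. For *Nkg7* it turned from 4.07 to -2.51 (p = 0.933) and for *Igkc* from -1.89 to 1.35 (p = 1), while for any of the 9 genes it was -18.5.

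**Figure D5:**
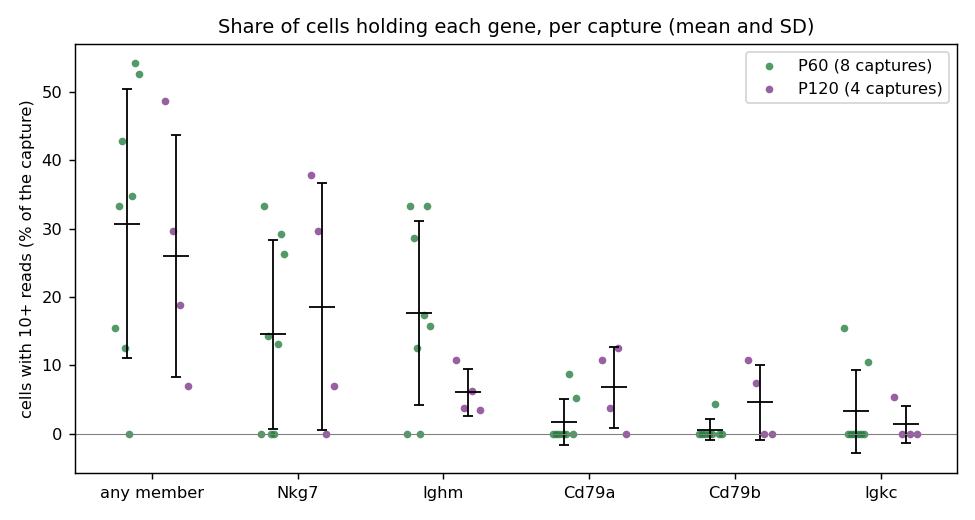
Percent of the cells of each capture that held any of the 9 genes, or each of the 5 genes held by 5 or more cells, at P60 (8 captures) and P120 (4 captures), with the mean and SD in black. The ages overlap for every gene shown, and 6 of the 8 P60 captures lie above every P120 capture for *Ighm*.

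Levels were compared on counts summed per capture, with edgeR's quasi-likelihood test. In such sums fewer cells of a type and less RNA per cell cannot be told apart. Run S047 holds P60 captures only, so age and run cannot be fully told apart in fits that use its captures. Of 8346 genes tested, 0.0599% were called higher at P120 and 0.0599% higher at P60 after Benjamini-Hochberg adjustment, and 5.31% had an unadjusted p under 0.05. Of the 9 genes, 4 passed the filter on low counts, and 0 were called. The unadjusted p was under 0.05 for *Cd79a* and *Igkc* in edgeR and for *Cd79a* and *Cd79b* in DESeq2. In edgeR without the filter it was under 0.05 for *Cd3e*, *Cd3g*, *Cd79a*, *Cd79b* and *Igkc*, with no adjusted p below 0.0819. *Cd3e* and *Cd3g* were held in capture 28 alone. DESeq2, run without that filter, gave no p for *Klrd1*, *Cd3e*, *Cd3g* and *Igkc*, and *Cd79b* was not among the 4. A gene held by a few cells passed through the captures where it was high, so the 4 are not a sample of the 9.

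*Nkg7* averaged 514 ± 820 CPM (SD, n = 8) at P60 and 325 ± 238 CPM (SD, n = 4) at P120, a log2 fold change of -0.47 ± 1.51 (SE) and an adjusted p of 1 in edgeR. Capture 17c, with 2373 CPM in 3 cells, decided its direction, and without it the log2 fold change was 0.37. *Ighm* averaged 265 ± 299 CPM (SD, n = 8) and 175 ± 197 CPM (SD, n = 4), a log2 fold change of -1.01 ± 1.62 (SE) and an adjusted p of 1. Without the 6 rich cells, an alternative chosen after seeing the data, the *Ighm* log2 fold change was -5.61 ± 2.17 (SE). Its unadjusted p was 0.0101 and its adjusted p 0.515 in edgeR. With all cells but without capture 20c the *Ighm* log2 fold change was -0.33.

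*Cd79a* averaged 0.509 ± 1.04 CPM (SD, n = 8) at P60 and 85.3 ± 94.9 CPM (SD, n = 4) at P120, with the highest P60 capture at 2.94 CPM. Its log2 fold change was 6.85 ± 2.42 (SE) with an unadjusted p of 0.00473 and an adjusted p of 0.416 in edgeR. In the captures of runs with both ages it was 5.35 ± 3.10 (SE) with an unadjusted p of 0.0897 in edgeR. The adjusted p there was 0.839. The P120 level came mostly from the 3 B-like cells, though capture 36 at P120, without a rich cell, stood at 14.4 CPM. Over all captures but without the 6 rich cells the log2 fold change was 3.88 ± 2.03 (SE). *Igkc* averaged 52.8 ± 145 CPM (SD, n = 8) at P60 and 1.78 ± 3.56 CPM (SD, n = 4) in the P120 captures. It had a log2 fold change of -7.27 ± 2.49 (SE) with p = 0.00357 and an adjusted p of 0.351 in edgeR. It rested on capture 10c, whose 13 cells sum to 119240 reads, and was -0.21 without it and -14.7 without capture 28. The median log2 fold change of all genes was 0.26 with TMM factors, -0.10 with RLE factors, and -1.45 in DESeq2, and none of the 4 directions turned with these. The *Igkc* value was -8.53 with RLE factors and -0.80 ± 2.61 (SE) in DESeq2.

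The normalized GFP intensity was compared between cells that held any of the 9 genes and the other cells of the same capture, in the 9 captures with at least 2 cells of each kind. Holding cells were lower in 6 of 9 captures, by a mean of -101 ± 240 (SD, n = 9). The exact two-sided sign-flip test gave p = 0.246, where the smallest p possible is 0.00391. The widest gap was in capture 32, with 85.4 in 8 holding cells and 670 in 19 others, and without it the mean was -40.8. In capture 9c the order was the other way, with 384 and 214. For *Nkg7* alone, a comparison added after the data were seen, the mean was -206 ± 221 (SD, n = 6) with p = 0.0625 by the exact test, lower in 5 of 6 captures, where the smallest p possible is 0.03125. For *Ighm* alone, also added later, the mean was 35.4 ± 169 (SD, n = 5) with p = 0.688 by the exact test. Read depth moved with holding in these captures, with 2523300 against 566403 median reads in capture 32, and its part in the GFP values was not tested.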

How the data were processed

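The deposited counts are whole reads per gene, made by the authors with STAR on mm10 (full-length cDNA, no molecular identifiers), after endothelial cells and outliers had been removed. No per-cell depth limit was applied here, and 92 spike-ins were left out. The deposited normalized GFP intensity of each cell was used as a score, and how the authors measured it is not given in the sources used here. Groups follow the labels' stage (P60 or P120), and the capture was the unit of every test. Counts were summed per capture and tested with edgeR 4.0.16 (filterByExpr, TMM, quasi-likelihood, Benjamini-Hochberg at 0.05 over all genes), with DESeq2 1.42.0 as an alternative. Each capture pooled several mice, so p-values measure the spread between such pools. Shares were tested by exact permutation over captures for every gene held by 5 or more cells and adjusted over all of these, and no p was computed for the 9 genes taken as a set.

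Symbols came from GENCODE M21 (GRCm38) by Ensembl identifier, which matched 48349 of 48709 genes, and promoter windows from RefSeq (GRCm38.p6). CPM are reads per 1000000 reads on genes. Intervals cover counting error only, and the edgeR step was tested on simulated data. *Klrd1*, *Cd79b*, *Ms4a1*, *Ighm* and *Igkc* have no promoter shown. The reads of 1 list gene are not reported here. Members, lists and rules were chosen with earlier results of these data known. Named genes were the 9, the 4 class genes, list genes held by rich cells or by the most cells, and the 3 genes most like each member held by 5 or more cells. *Lfng*, *Mki67*, *Top2a*, *S100a8*, *S100a9*, *Prtn3*, *Ighg2b*, *Jchain*, *Tcrg-C4* and single variable segments were named after their values were seen. Python 3.11.15, scipy 1.17.1 and R 4.3.3 were used.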

Additional observations from a re-analysis of the deposited data

Results flagged for a closer look

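Of 30 groups of captures checked with Dixon's ratio, 15 had a single capture far from the others of its age. The chance rate of about 1 in 20 holds for normal values, which these are not. Where a single capture is above 0 the ratio is 1 by construction, so the count of flags is not an excess over chance. In most of the flagged groups the gene was held, at that age, by 1 or 2 cells of a single capture.

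*Nkg7* was at 2373 CPM in capture 17c at P60, against 882 in the next, and this capture holds 3 cells. *Klrd1* was held by 5.26% of the cells of capture 9c at P60 (124 CPM) and by 2.70% of capture 28 at P120 (105.3 CPM), with no holding cell elsewhere. These are Cell_004 and Cell_205. *Cd3e* and *Cd3g* were each held by 5.41% of the cells of capture 28 at P120, at 56.7 and 145 CPM, from Cell_105 and Cell_205.

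Among the B cell genes, *Cd79a* was at 2.94 CPM in capture 31 at P60, against 0.983 in the next. *Cd79b* was held by 4.35% of the cells of the same capture, at 2.61 CPM, which is Cell_067. *Igkc* was at 411 CPM in capture 10c at P60, against 4.69 in the next, and capture 10c has a median of 451 reads per cell. At P120 *Igkc* was held by 5.41% of the cells of capture 28, at 7.12 CPM, from Cell_216 and Cell_226.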

How the results depend on the processing

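No member was called between the ages in any of the 18 alternatives, of which 1 used DESeq2 and the others edgeR, leaving out each capture in turn included (0 to 0 calls). The difference in the share of cells that held any of the 9 genes was -27.3 percentage points at 1 read in place of 10, and ranged from -12.3 to 1.64 when each capture was left out. The GFP difference ranged from -135 to -40.8 in the same way, and for *Ighm* in place of any gene it was 35.4. The share of *Nkg7* cells in a class was 71.6% with *Nkg7* at 1 read, 100% with 1 read of either class gene and 73.2% with 1000. With 2 lymphoid genes in place of 3, 43 cells were called lymphoid. The *Nkg7* log2 fold change ranged from -0.71 to 0.37 when each capture was left out, and its difference in share from -2.34 to 10.3, turning without capture 28, and was -2.51 in the runs of both ages. The *Igkc* difference in share turned to 1.35 at 30 reads and to 1.35 in the runs of both ages. Without capture 38 the *Cd79a* difference in share was 7.26 (unadjusted exact p = 0.0364), and without capture 10c and the 6 rich cells that of *Ighm* was -17.1 (unadjusted exact p = 0.0303), an alternative chosen after seeing the data. At 1 read in place of 10 the unadjusted exact p was 0.0364 for *Cd79b* (16.9) and for *Igkc* (-49.3). The cells with an *Igkc* read lie mostly in a run of P60 captures only. The cause of these changes was not tested. No paired analysis was possible because captures carry no replicate numbers shared between the ages. Depth limits the low values most, since 47 of 211 cells had under 50000 reads.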
